A study of Mus musculus with 66 samples.

Results

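Regions of differing histone signal at the genes of the Reelin pathway, Reln, its receptors Vldlr and Lrp8 and its adaptor Dab1, were examined in 7 deposited tables from mouse neurons and hippocampal nuclei. A region belonged to the set when the authors' table named one of the 4 genes for it, and 44 of 57678 listed regions did so. Dab1 had 24 of them, Reln 14, Lrp8 5 and Vldlr 1. The regions were thus chosen by their measured values: a region entered a table only because its normalised read count differed between the groups, so the differences below describe listed regions and were not tested again.

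Reelin is a large secreted glycoprotein that is made by Cajal-Retzius cells in the embryonic cortex and by interneurons later on. It binds the lipoprotein receptors VLDLR and LRP8 (also called ApoER2) on neurons, and their clustering leads to phosphorylation of the adaptor DAB1 inside the cell by kinases of the Src family. The pathway places migrating neurons in their layers, and in the adult hippocampus it is known for effects on synapses and dendrites.

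The series asked how activity of neurons and enriched housing act on the turnover of histones. The cultures were primary cortical neurons of C57bl/6 mice, prepared from E16.5 embryos and kept for 8 days in vitro, either left unstimulated or depolarised with isotonic KCl for 30 min, 2 hr or 5 hr. H3.3, the histone H3 variant that is deposited outside DNA replication, was immunoprecipitated at each time, and H3.1/2, the variants deposited mainly during replication, at 5 hr only. CATCH-IT, which captures chromatin that holds newly made, chemically tagged histones, was done at 5 hr. The hippocampal nuclei came from C57bl/6 mice of about 7 weeks that were normally housed or given environmental enrichment, and were sorted as NeuN-positive (neuronal) or NeuN-negative (glia, per the design text). Enrichment lasted 4 weeks for NeuN-positive nuclei, and its length for NeuN-negative nuclei is not given in the labels. Culture and NeuN-negative tables held 3 values per group, and 2 were held for NeuN-positive nuclei. The labels describe biological triplicates in vitro and duplicates in vivo, and do not say which animals or cultures a library came from. No RNA was measured, so the cell types could not be checked by marker expression. Of 31 marker genes of neurons, interneurons, Cajal-Retzius cells, glia and vessels, 2 were named in the 30 min H3.3 table, none in the other culture H3.3 tables, 15 in CATCH-IT, and 2 in NeuN-positive but none in NeuN-negative nuclei. Of all coding genes 1.43% were named for H3.3 at 30 min, 1.81% at 2 hr, 1.98% at 5 hr and 39.4% in CATCH-IT. In NeuN-positive nuclei 3.49% of coding genes were named, and 2.39% in NeuN-negative ones. By the library names, the groups compared at 30 min, at 2 hr, in CATCH-IT and in NeuN-negative nuclei were sequenced in different lanes, and lane and treatment cannot be told apart there.

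H3.3 regions were listed at Reln and Dab1 only, 10 in all, and 8 of the 10 were lost. All 7 in cultured neurons were lost after KCl, at 30 min and 2 hr in both genes and at 5 hr in Dab1. In NeuN-negative nuclei Dab1 had 2 gained regions and 1 lost region after enrichment. None of the 7 H3.1/2 regions, of which 57.1% had an adjusted p of 0.05 or less, was named for any of the 4 genes. The same held for the 1642 NeuN-positive regions, of which 97.8% had such a p. Since changes under about 3-fold are not in the tables, a missing region does not show that the signal stayed the same.

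The sequences below are the H3.3 regions on which the description turns. The Reln sequences are shown because both lost regions cover a border of an exon. They are on the minus strand of chromosome 5 (mm9), 5′ to 3′ along the gene, and capitals mark coding bases of the transcript Reln-001. By that transcript the first holds the end of the intron and 101 coding bases of exon 2. The other holds the last 23 coding bases of exon 1 followed by 177 bases of the intron. In a shorter annotated transcript of Reln 100 bases of this other region are coding.
Reln, lost at 30 min, chr5:21792721-21792920: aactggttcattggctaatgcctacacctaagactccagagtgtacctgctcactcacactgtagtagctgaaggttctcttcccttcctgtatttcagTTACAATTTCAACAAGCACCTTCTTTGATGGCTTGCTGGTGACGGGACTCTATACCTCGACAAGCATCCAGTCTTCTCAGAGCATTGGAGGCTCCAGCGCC
Reln, lost at 2 hr, chr5:21849821-21850020: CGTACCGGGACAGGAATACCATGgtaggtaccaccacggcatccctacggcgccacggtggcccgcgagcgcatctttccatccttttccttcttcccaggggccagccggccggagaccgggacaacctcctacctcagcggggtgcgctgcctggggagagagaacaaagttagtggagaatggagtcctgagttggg

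The Dab1 sequences are shown because they came from a single gene yet differed in direction. They are on the plus strand of chromosome 4 (mm9), all 4 within introns, and capitals mark CpG dinucleotides, the sites of DNA methylation in mammals. The first is the only 5 hr region, and the others are the 3 of NeuN-negative nuclei.
Dab1, lost at 5 hr, chr4:104082301-104082500: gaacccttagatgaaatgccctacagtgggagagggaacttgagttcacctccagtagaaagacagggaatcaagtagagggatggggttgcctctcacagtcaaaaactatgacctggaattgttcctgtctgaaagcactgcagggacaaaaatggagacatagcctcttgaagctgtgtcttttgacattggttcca
Dab1, gained in NeuN-negative nuclei, chr4:103462501-103462700: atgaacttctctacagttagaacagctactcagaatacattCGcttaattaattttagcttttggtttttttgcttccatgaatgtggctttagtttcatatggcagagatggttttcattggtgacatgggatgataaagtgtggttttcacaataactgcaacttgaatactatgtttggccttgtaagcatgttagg
Dab1, lost in NeuN-negative nuclei, chr4:103952061-103952280: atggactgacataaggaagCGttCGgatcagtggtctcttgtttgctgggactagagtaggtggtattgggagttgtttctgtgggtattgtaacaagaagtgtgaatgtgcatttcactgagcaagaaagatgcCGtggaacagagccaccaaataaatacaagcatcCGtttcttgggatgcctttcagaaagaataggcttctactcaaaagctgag
Dab1, gained in NeuN-negative nuclei, chr4:104231821-104232040: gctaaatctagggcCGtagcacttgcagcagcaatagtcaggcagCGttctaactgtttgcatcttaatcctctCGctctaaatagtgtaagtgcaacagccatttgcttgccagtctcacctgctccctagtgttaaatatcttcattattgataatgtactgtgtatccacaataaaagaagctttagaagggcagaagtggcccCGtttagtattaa

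Reln encodes the ligand. The gene spans chr5:21390272-21850523 on the minus strand, 460.252 kb, and its long transcript has 65 exons. After 30 min of KCl the normalised read counts in the region at exon 2, 57.7 kb from the gene start, were 1.73, 5.26 and 2.06. Unstimulated neurons had 11.41, 11.66 and 10.74. The control libraries lay close together and above every KCl library, and the KCl library in the second place was the highest of its group. The mean was 3.02 ± 1.95 after KCl and 11.3 ± 0.476 in controls (SD, n = 3), and the authors' deposited table gave a log2 fold change of -1.90 and an adjusted p of 0.0303. Without the KCl library in the second place the fold between the means, 3.74, became 5.95. Behind these values were 2, 5 and 2 reads after KCl and 9, 14 and 11 reads in controls. The labels list 4 control libraries at 30 min, 1 of them a repeat, and it is not known which of them give the 3 control values of this table, so a library and its repeat may both be among them.

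At 2 hr the listed Reln region was another one, 56.9 kb closer to the gene start. Its edges lay 503 and 702 bp inside the gene, at the 3′ border of exon 1. The KCl libraries had normalised read counts of 1.84, 5.30 and 1.36 there. The control libraries had 14.26, 10.00 and 12.27. The groups did not overlap, and again the KCl library in the second place was the highest of its group. The mean was 2.83 ± 2.15 after KCl and 12.2 ± 2.13 in controls (SD, n = 3), with a log2 fold change of -2.10 and an adjusted p of 0.0210 in the authors' deposited table. Without the KCl library in the second place the fold between the means, 4.30, became 7.61.

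The 2 hr region of Reln was rich in CpG for its table. It held 14 CpG and 62.5% GC, whereas the 508 regions of 200 bp in that table had medians of 2 CpG and 46% GC, and 99.8% of them had fewer CpG. The 30 min region held 3 CpG and 48.5% GC, near its table's medians of 2 and 47%. A search of both strands for the cAMP response element TGACGTCA and the AP-1 motif TGANTCA found neither in any of the 10 member regions, against 0.0642% and 6.54% of all 3117 H3.3 regions of 200 bp. The shorter TGACG, which is part of the first motif, was in the Reln 30 min region only, among the coding bases, and in 6.96% of all such regions. The Dab1 members at 660.2 and 940.0 kb from the gene start, both in NeuN-negative nuclei, were wider than these, at 220 bp. No H3.3 region was listed at Reln at 5 hr or in hippocampal nuclei.

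Dab1 encodes the adaptor that is phosphorylated when Reelin binds its receptors. The gene spans chr4:103291964-104417449 on the plus strand, 1125.49 kb, which is longer than 99.8% of coding genes. It has a long 5′ part without coding sequence, so that its first coding base lies 859.85 kb from the gene start, after 76.4% of the gene. At 30 min the region 275.7 kb from the start, chr4:103567561-103567760, had normalised read counts of 5.19, 2.10 and 3.09 after KCl. The controls had 11.41, 14.99 and 11.72. Every control library was above every KCl library, with means of 12.7 ± 1.98 and 3.46 ± 1.58 (SD, n = 3). The authors' deposited table gave a log2 fold change of -1.88 and an adjusted p of 0.0257.

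A second 30 min region of Dab1, chr4:103908681-103908880 at 616.8 kb, had 2.59, 6.31 and 3.09 after KCl. The controls had 25.36, 9.99 and 12.70. One control library was far above the others, and the lowest control still exceeded the highest KCl library. The mean fell from 16.0 ± 8.20 to 4.00 ± 2.02 (SD, n = 3), with a log2 fold change of -2.00 and an adjusted p of 0.0290 in the authors' deposited table. Without the control library in the first place the difference of the means, KCl minus control, went from -12.0 to -7.35 and the fold from 4.01 to 2.84, under the 3-fold at which the table begins.

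At 2 hr Dab1 again had a pair of lost regions in its 5′ part. In the one at 42.8 kb, chr4:103334621-103334820, the KCl libraries had 0.92, 2.27 and 4.09. The controls had 10.18, 10.00 and 12.27. The controls were all above the KCl libraries, with means of 10.8 ± 1.26 and 2.43 ± 1.59 (SD, n = 3), and the authors' deposited table gave a log2 fold change of -2.16 and an adjusted p of 0.0182. Without the KCl library in the third place the fold went from 4.46 to 6.78. In the one at 326.5 kb, chr4:103618361-103618560, the KCl libraries had 2.76, 3.03 and 1.36. The controls had 13.24, 10.00 and 11.05. Here too every control library was above every KCl library, with means of 11.4 ± 1.65 and 2.38 ± 0.896 (SD, n = 3). The authors' deposited table gave a log2 fold change of -2.26 and an adjusted p of 0.0180.

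After 5 hr the only listed H3.3 region was in Dab1, 790.4 kb from the gene start and 69.314 kb before the first coding base. The KCl libraries had 3.93, 6.14 and 6.94. The controls had 17.71, 24.60 and 13.58. The groups did not overlap, and the controls were spread more widely than the KCl libraries. The mean was 5.67 ± 1.56 after KCl and 18.6 ± 5.57 in controls (SD, n = 3). The log2 fold change of -1.71 came with an adjusted p of 0.105 in the authors' deposited table, so this region did not pass 0.05. All 5 culture H3.3 regions of Dab1 lay before its first coding base, as does 76.4% of the gene. No region recurred at another time.

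The members' counts were read against all listed regions. At 30 min 3 of 3 member regions were lost with an adjusted p of 0.05 or less, and so were 78.6% of all listed regions, with 19.9% gained. At 2 hr it was again 3 of 3, beside 85.3% of all lost and 14.2% gained. At 5 hr 0 of 1 passed, and 1.35% of all listed regions were lost and 1.65% gained with such a p. The groups did not overlap in any of the 7 member regions, nor in 100% of the regions of each of the 3 tables. Loss at the members was thus what most regions of the 30 min and 2 hr tables showed. The library names carry the tag rmdup at 30 min and 2 hr and another tag at 5 hr, so time and the authors' handling of reads cannot be told apart.

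**Figure D1:**
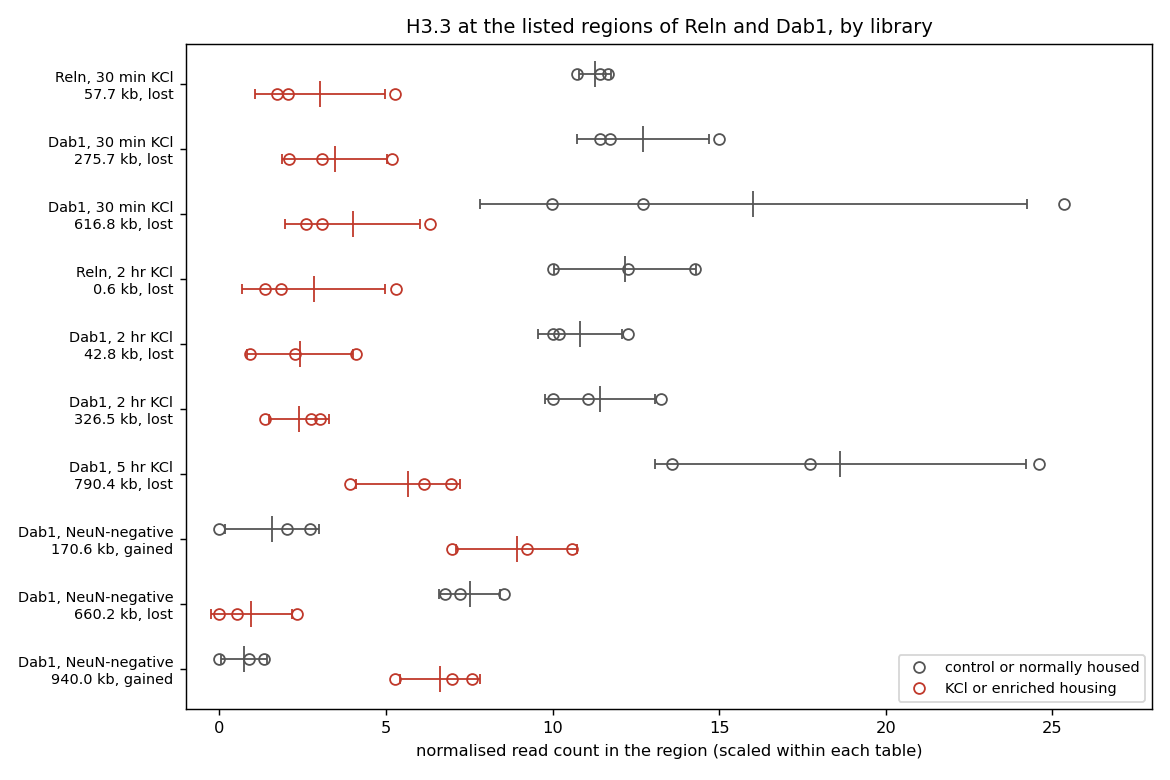
Normalised read count of each library (circles) at the 10 H3.3 regions of Reln and Dab1, with the mean and SD of each group of 3 (vertical tick and bar) and the distance from the gene start under each name. In the 7 culture regions every control library lies to the right of every KCl library, and in NeuN-negative nuclei the order of the groups is opposite in 2 of 3 regions; levels compare only within a table.

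Set against input, the fall was not the same size in every region. The deposited ratio of the group mean to input at Reln went from 1.60 in controls to 0.26 after KCl at 30 min, and from 2.65 to 1.81 at 2 hr. At Dab1 the 30 min ratios were 4.08 against 0.55 and 2.46 against 1.21. The 2 hr region of Dab1 at 42.8 kb had 1.67 in controls and 1.59 after KCl, a 1.05-fold difference where the read counts differed 4.46-fold. The other 2 hr region went from 1.55 to 0.22, and the 5 hr region from 3.09 to 0.77. All 10 H3.3 regions kept their direction relative to input. Each group had 1 input library by the labels, so these ratios have no spread of their own.

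**Figure D2:**
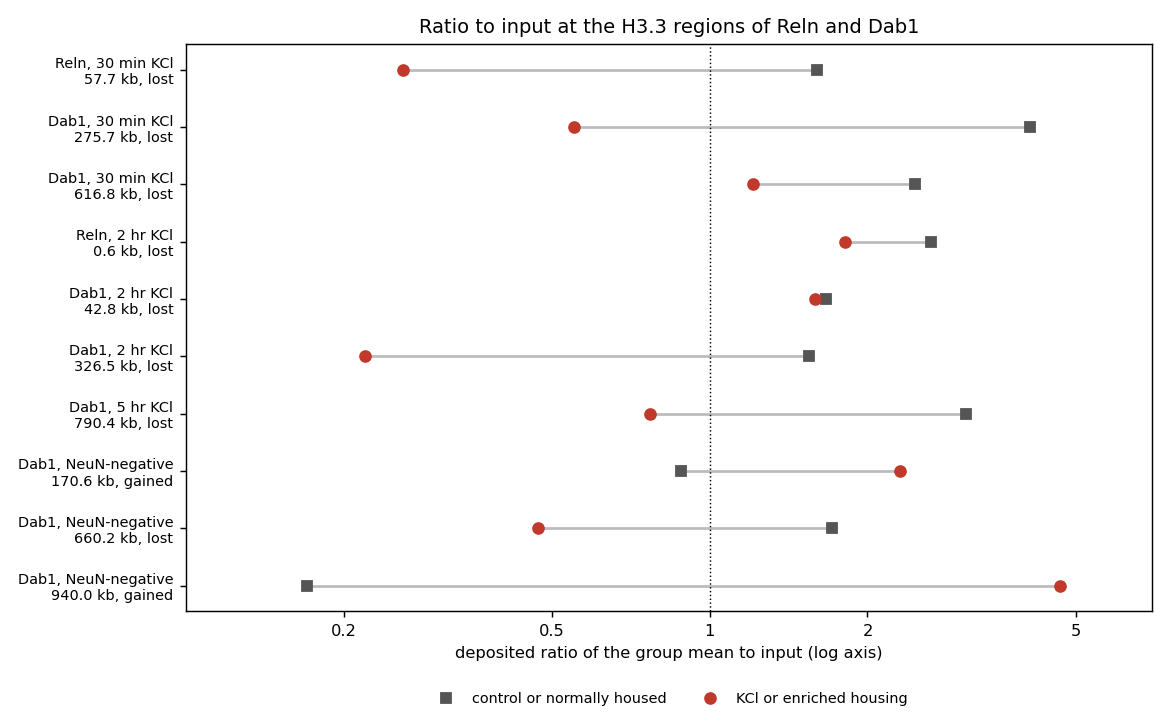
Deposited ratio of the group mean to input for the 10 H3.3 regions (log axis; squares, control or normally housed; circles, KCl or enriched; dotted line, a ratio of 1). The ratios lie apart in most regions, but at the Dab1 region 42.8 kb from the start they are 1.67 and 1.59.

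In NeuN-negative nuclei H3.3 at Dab1 moved in both directions after enrichment. In the region at 170.6 kb the enriched libraries had normalised read counts of 6.98, 10.57 and 9.22. The normally housed ones had 0, 2.03 and 2.71. Every enriched library was above every normally housed library, with means of 8.92 ± 1.81 and 1.58 ± 1.41 (SD, n = 3). Behind these values were 6, 4 and 17 reads with enrichment and 0, 3 and 3 with normal housing. The authors' deposited table gave a log2 fold change of 2.50 and an adjusted p of 0.00556. The fold of 5.65 became 8.79 without the normally housed library in the third place, and the log2 fold change became 1.94 with a pseudocount of 1 added to both means.

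The region at 940.0 kb was also gained. The enriched libraries had 6.98, 5.28 and 7.59. The normally housed libraries had 0, 1.35 and 0.90. The groups did not overlap, with means of 6.62 ± 1.20 and 0.750 ± 0.687 (SD, n = 3), and the authors' deposited table gave a log2 fold change of 3.14 and an adjusted p of 0.00466. These values rest on few reads, 6, 2 and 14 in the enriched libraries and 0, 2 and 1 in the normally housed ones. One read was worth from 0.542 to 2.64 normalised counts among the libraries of this table. The libraries in the second place of both groups had 2 reads each, so there the groups were apart only after scaling. The fold between the means was 8.82, and leaving out 1 library at a time moved it between 5.88 and 14.7, the latter without the normally housed library in the second place. With a pseudocount of 1 the log2 fold change was 2.12, and with 0.5 it was 2.51. The ratio to input rose from 0.17 to 4.67.

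Between them, at 660.2 kb, the region was lost. The enriched libraries had 2.33, 0 and 0.54. The normally housed libraries had 8.53, 6.76 and 7.23. The groups did not overlap, with means of 0.957 ± 1.22 and 7.51 ± 0.917 (SD, n = 3), and the authors' deposited table gave a log2 fold change of -2.97 and an adjusted p of 0.00556. Without the enriched library in the first place, which had 2 reads there, the fold between the means moved from 7.85 to 27.8. The log2 fold change was -2.12 with a pseudocount of 1 and -2.46 with 0.5. Among NeuN-negative regions 70.6% of all listed regions were gained and 29.3% lost with an adjusted p of 0.05 or less, so 2 gained and 1 lost at Dab1 is close to the table as a whole. The groups did not overlap in 3 of 3 member regions, and neither did they in 100% of the listed NeuN-negative regions. The ratio to input was 1.71 with normal housing and 0.47 with enrichment in the lost region, and 0.88 and 2.31 in the gained one at 170.6 kb.

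The H3.3 regions of Dab1 were then counted against other genes. With 8 of the 4651 H3.3 regions of the 5 tables, Dab1 was 1 of 3 coding genes among 22380 with 8 or more. Per length the number was 0.711 regions per 100 kb in Dab1 and 0.435 in Reln, beside 0.175 per 100 kb of the genome. Of the 2401 coding genes of 100 kb or more, 85.3% had a lower H3.3 density than Dab1 and 74.1% a lower one than Reln. Reln is longer than 98.9% of coding genes, and long genes offer more windows. Of the 10 H3.3 regions, 8 were in introns and 2 touched a coding exon. Among all listed regions those touching a coding exon of any coding gene made up 7.44% at 30 min, 4.64% at 2 hr, 8.10% at 5 hr and 3.60% in NeuN-negative nuclei. Those in introns only made up 55.1%, 55.0%, 57.9% and 41.2% in the same order. The bases differ, since 32.4%, 36.3%, 30.6% and 53.8% of all listed regions lay outside coding genes, whereas every member lies in a gene.

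CATCH-IT at 5 hr listed 34 regions named for the 4 genes, 23 gained and 11 lost after KCl. All 34 had an adjusted p of 0.05 or less, as did 100% of the table, and gained regions made up 57.3% of the table and lost regions 42.7%. Each of the 34 had no read in any library of 1 group and reads in all 3 libraries of the other, a pattern that 97.7% of the table shared for the zeros and 100% for the reads. The groups did not overlap in any of them, nor in 99.2% of the table. No fold change can be given against a group at 0. The authors' adjusted p ran from 4.15e-07 to 0.000291.

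At Reln CATCH-IT gained 9 regions and lost 3, all in introns but the one at the gene end. Of the gained ones 8 lay in the 3′ part of the gene, between 268.452 and 426.373 kb from the start. The region with the smallest adjusted p, 423.5 kb from the start (chr5:21426841-21427220), had 22.71, 1.60 and 13.59 after KCl and 0 in each control, a mean of 12.6 ± 10.6 (SD, n = 3) that became 7.60 without the first library. The library in the second place was far below the other KCl libraries. Its neighbour 426.4 kb from the start had 5.34, 6.39 and 5.44 after KCl, a mean of 5.72 ± 0.580 (SD, n = 3). These were the closest normalised counts among KCl libraries in the gene, shared with a region 312.1 kb from the start. The reads behind them were 4, 12 and 2, so the libraries were close only after scaling, and 88 regions had the same 6 values. The gained region nearest to the gene start, at 40.2 kb, had 12.02, 0.53 and 13.59. The authors' deposited table gave these an adjusted p of 4.15e-07, 5.02e-07 and 4.56e-07 in that order.

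Of the lost Reln regions 2 flanked that gained one, and the third was at the other end of the gene. The region at 20.7 kb had 1.26, 4.16 and 14.19 in controls and 0 in each KCl library, a mean of 6.54 ± 6.78 (SD, n = 3). The region at 169.0 kb had 0.95, 4.16 and 14.19, a mean of 6.43. Without the third control library these means were 2.71 and 2.56. The region at the gene end, chr5:21389941-21390320, which takes in 49 bases of exon 65 (3′ untranslated), had 2.84, 11.09 and 14.19. In all 3 the control library in the third place had exactly the same value, and it was the highest. No H3.3 region of Reln lay within 10 kb of a CATCH-IT region.

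**Figure D3:**
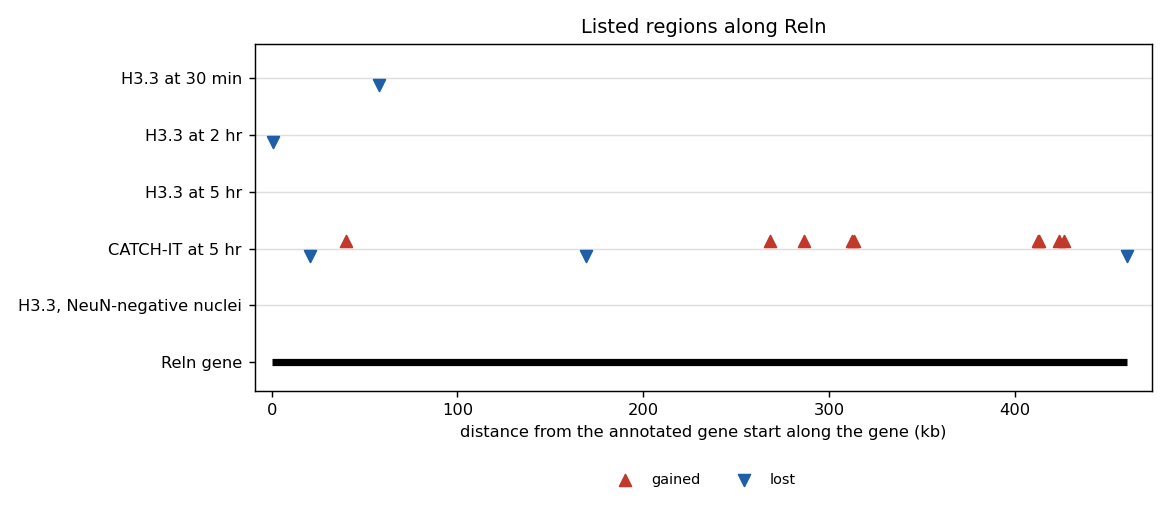
Listed regions along Reln by distance from the gene start (kb), 1 row per table; triangles pointing up are gained and those pointing down are lost. Both lost H3.3 regions sit within 57.7 kb of the start, and 8 of 9 gained CATCH-IT regions sit beyond 268 kb.

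Of the receptors, Vldlr had 1 CATCH-IT region and no H3.3 region. The Vldlr gene spans chr19:27290974-27328721 on the plus strand, 37.748 kb. The gained region chr19:27314341-27314720, 23.6 kb from the start, takes in 120 bases of the coding exon 9 of the transcript Vldlr-001. It had 4.01, 6.39 and 2.72 after KCl and 0 in each control, a mean of 4.37 ± 1.86 (SD, n = 3), and an adjusted p of 3.01e-06 in the authors' deposited table.

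Lrp8, the other receptor, spans chr4:107474866-107549445 on the plus strand, 74.58 kb, and had 5 CATCH-IT regions, all in introns. The lost region 2.0 kb from the start, the nearest to a start among the CATCH-IT regions of Reln, Vldlr and Lrp8, had 0.95, 6.93 and 14.19 in controls, a mean of 7.36 ± 6.63 (SD, n = 3). The lost one at 46.8 kb had 1.58, 2.77 and 14.19, a mean of 6.18. Both had the same value in the third control library, as at Reln, and without that library the means were 3.94 and 2.18. The 3 gained ones lay between them. At 17.5 kb the KCl libraries had 6.68, 6.92 and 2.72, at 20.1 kb 12.02, 1.60 and 8.15, and at 31.2 kb 1.34, 3.73 and 5.44, all with 0 in each control. The adjusted p of the 5 ran from 6.35e-07 to 0.000287 in the authors' deposited table. Lrp8 had 6.70 CATCH-IT regions per 100 kb, against 2.65 at Vldlr, 2.61 at Reln and 2.00 over the genome.

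At Dab1 the count depended on which start the table used. The CATCH-IT and 5 hr tables measured Dab1 from a downstream start, used by 7 annotated transcripts, and the 30 min and 2 hr tables from an upstream one, used by 2, which lies 747.895 kb away. Of the 3 NeuN-negative regions 2 were also measured from the upstream start, and the deposited distance of the third, 47252 at the region 940.0 kb from the gene start, was counted from neither. By the authors' name Dab1 had 16 CATCH-IT regions, 10 gained and 6 lost. Counting all regions within the annotated gene it had 38, 18 gained and 20 lost, since 22 regions upstream of the downstream start carry no Dab1 name. Of those 22, 8 were gained and 14 lost (36.4% gained), and of the 16, 62.5% were gained. The 4 genes together had 31 gained and 25 lost regions counted this way, or 55.4% gained, beside 67.6% by name and 57.3% in the table. Within Dab1 the density was 2.94 per 100 kb before the downstream start and 4.24 from it on, and 82.3% of the 2401 coding genes of 100 kb or more had a lower density than Dab1 as a whole, at 3.38.

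The gained region 2.98 kb from the downstream start, chr4:104042941-104043340, had 29.39, 2.66 and 21.74 after KCl, a mean of 17.9 ± 13.8 (SD, n = 3). Among the regions named for Dab1, a pair of further gained ones had the smallest adjusted p. One, 967.8 kb from the gene start, had 8.02, 3.20 and 16.31, and the other, 1014.9 kb from it, had 8.02, 3.20 and 21.74. Without the third library both means became 5.61, the former from 9.18 and the latter from 10.99. In all 3 the library in the second place was the lowest. The authors' deposited table gave them an adjusted p of 4.22e-07, 4.15e-07 and 4.15e-07. Gained regions also lay at the 3′ end of the gene. One took in 51 bases of a coding exon, with 4.01, 6.39 and 2.72, and another the last bases of the gene's 3′ untranslated exon, with 4.01, 6.39 and 5.44.

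Lost regions named for Dab1 were spread over the same stretch. The one with the smallest adjusted p, 5.01e-07 in the authors' deposited table, lay 1033.3 kb from the gene start and had 2.84, 16.63 and 14.19 in controls. The next, at 1068.8 kb, had 2.21, 6.93 and 15.37, a mean of 8.17 that became 4.57 without the third library. A gained region with 1.34, 6.92 and 2.72 after KCl ended just before that region. The lost region at 994.5 kb had 0.63, 16.63 and 1.18, so that 1 library carried nearly all of its mean of 6.15 ± 9.08 (SD, n = 3). Without that library, in the second place, the mean was 0.905.

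Dab1 regions of different tables came close together in a few places without overlapping. The NeuN-negative gained region at 170.6 kb was followed after 820 bp by a CATCH-IT region lost after KCl. The 2 hr lost region at 42.8 kb had a gained CATCH-IT region 4900 bp before it and a lost one 9600 bp after it. The 2 hr lost region at 326.5 kb lay 5260 bp from a lost CATCH-IT region. These comprise every pair from different tables within 10 kb in the 4 genes, and the tables were made from different libraries.

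**Figure D4:**
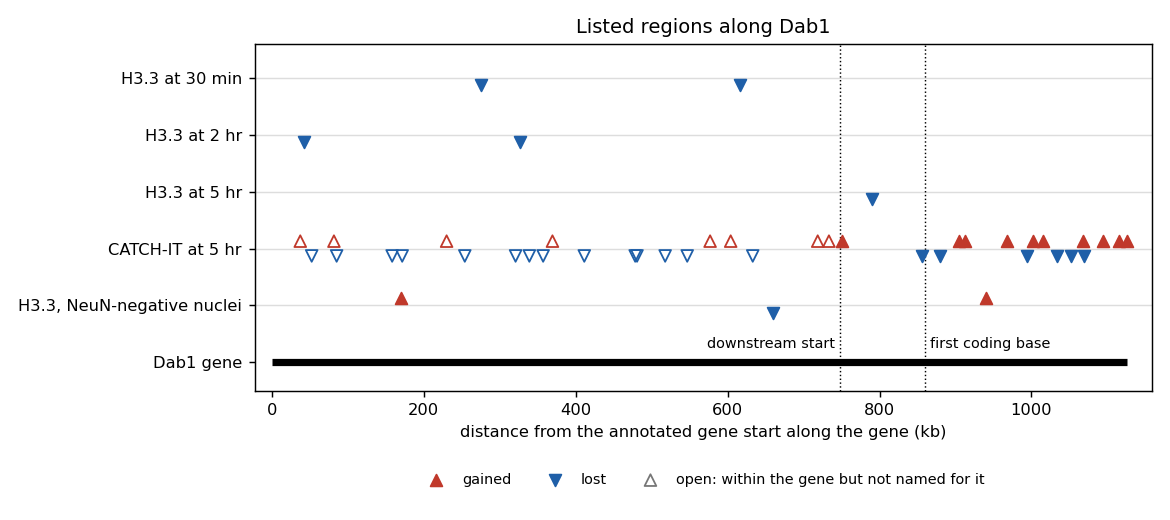
Listed regions along Dab1 by distance from the gene start (kb), 1 row per table; triangles pointing up are gained, those pointing down are lost, and open ones lie in the gene but carry no Dab1 name in the table. All 5 culture H3.3 regions are lost and lie before the first coding base (dotted line on the right), as does 76.4% of the gene. The 22 open CATCH-IT regions lie before the downstream start (dotted line on the left).

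The CATCH-IT values were made of few reads. In 27 of the 34 regions the SD of the higher group was 50% of its mean or more, and in 7 it exceeded the mean. Leaving out 1 library moved the mean of the higher group by over 1.5 times in 17 of the 34, 9 of 23 gained and 8 of 11 lost, and by 6.79 times at most. Of these 8 lost regions, 7 moved most without the third control library, among them Dab1 regions at 856.1 kb, from 5.51 to 1.17, and at 1052.3 kb, from 5.82 to 1.64. One read was worth 1.34, 0.533 and 2.72 normalised counts in the KCl libraries and 0.316, 1.39 and 1.18 in the controls. The third control library stood at exactly 12 reads, the value of 14.19 that recurs above, in 8 of 11 lost member regions and in 67.6% of all lost regions, while 0.168% of all had 11 reads and 2.92% had 13. The KCl library in the second place stood at 12 reads in 9 of 23 gained member regions and in 23.2% of all gained regions. Of the members 76.5% had a library of the higher group at exactly 6 or 12 reads, beside 73.5% of the table. The name of the deposited CATCH-IT table carries a duplicate setting of 6, and its part in these values was not tested.

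**Figure D5:**
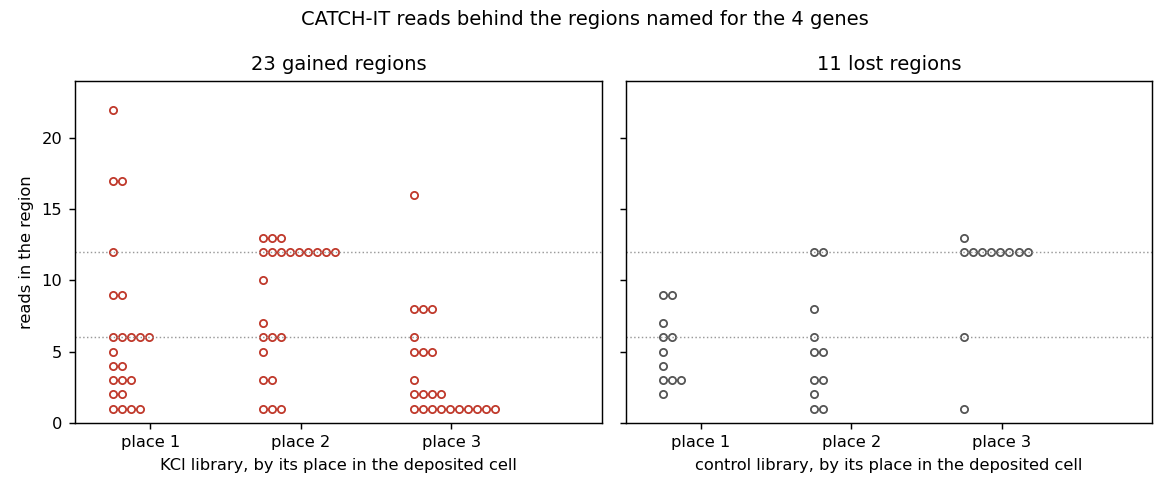
Reads in each CATCH-IT library of the higher group, 1 circle per region named for the 4 genes (left, KCl libraries in the 23 gained regions; right, control libraries in the 11 lost ones; dotted lines at 6 and 12 reads). The third control library is at 12 reads in 8 of 11 lost regions, and the KCl library in the second place is at 12 reads in 9 of 23 gained ones.

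A list of 77 other genes of the pathway was counted in the same tables. These lie downstream of DAB1 (kinases, the Crk and Rap1 relay, microtubule regulators), bind or cut Reelin, are related receptors, or are known targets. The list was chosen with earlier results of these data known. Gene length was not taken into account in the shares of the list and of coding genes given below for each table. At 30 min 4 were named (5.19% of the list, 1.43% of all coding genes). Lrp6, a Wnt co-receptor, went from 15.9 ± 2.79 in controls to 3.29 ± 0.774 after KCl. Rap1a, a small GTPase downstream of DAB1, went from 12.7 ± 3.36 to 3.02 ± 1.95. Cdh2, the N-cadherin that acts in Reelin-guided migration, had 1 lost and 1 gained region, from 13.6 ± 1.76 to 3.59 ± 0.571 and from 2.23 ± 0.862 to 10.8 ± 1.71. Ephb1, a receptor of ephrin-B proteins, rose from 2.74 ± 1.99 to 11.3 ± 1.81 (all normalised read counts, SD, n = 3). All 4 genes had an adjusted p of 0.05 or less, as did 98.5% of the table. For Rap1a the ratio to input was not finite after KCl, against 1.77 in controls.

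At 2 hr 8 of the 77 were named (10.4%, against 1.81% of coding genes), 6 lost and 2 gained, with an adjusted p of 0.05 or less in each, as in 99.6% of the table. Fyn, the Src-family kinase that phosphorylates DAB1, had 3 lost regions, the one of smallest p going from 13.6 ± 2.08 to 3.70 ± 0.938. Relative to input that region went the other way, 1.22 in controls and 2.40 after KCl. Grin2b, the NMDA receptor subunit whose phosphorylation Reelin is known to raise, had 2 lost regions, the lower in p from 13.8 ± 1.41 to 3.69 ± 2.59. Lrp1b went from 15.4 ± 2.73 to 4.45 ± 2.28 and Nectin3 from 11.8 ± 0.817 to 2.58 ± 1.72. Ephb1 was gained, from 3.02 ± 0.864 to 11.9 ± 0.996, and App (lost) and Nck2 (gained) were also among the 8.

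At 5 hr 8 were named again (10.4%, against 1.98% of coding genes), 5 lost and 3 gained, and none had an adjusted p of 0.05 or less in the authors' deposited table, beside 3.00% of its regions. Mylip, which marks VLDLR and LRP8 for degradation, had 18.5 ± 3.49 in controls and 5.96 ± 1.76 after KCl. Ephb1 had 3.28 ± 2.46 and 13.6 ± 2.07, so that it was listed as gained at all 3 times, at a different place each time. App had 13.2 ± 2.21 and 3.77 ± 0.719, and Rapgef1, the exchange factor that activates Rap1, had 11.6 ± 1.37 and 2.78 ± 1.71. Apba1 (2 lost regions), Notch1, Pafah1b1 and Socs7 were the others. Relative to input the lost Pafah1b1 region went the other way, 3.86 in controls and 5.15 after KCl. Enriched NeuN-positive nuclei named 4 of the 77 (5.19%, against 3.49% of coding genes), Dab2ip and Nck2 gained and Lrp1b and Nectin1 lost. NeuN-negative nuclei named 1, Dab2ip, lost (1.30%, against 2.39%). The H3.1/2 table named none. CATCH-IT named 53 (68.8%, against 39.4% of coding genes), 16 only gained, 8 only lost and 29 with both, in 123 gained and 86 lost regions, and gene length was not taken into account in these shares.

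The pattern of Reln over the tables, lost H3.3 at 30 min and 2 hr, both directions in CATCH-IT and nothing elsewhere, was shared in 7 of 7 tables by 9 of 9808 named genes. The closest to Reln in number of CATCH-IT regions were Cdk14 with 11, Khdrbs2 with 13, Atrnl1 with 14, Igsf21 with 8 and Vav2 with 6, where Reln has 12. Likeness here counts only equal codes of gained, lost, both or none.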

How the data were processed

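The files used were 7 deposited tables of regions that differed between 2 groups of ChIP or CATCH-IT libraries. Reads were handled with Bowtie (0.12.7) and bedtools (2.16.2) on mm9, per the submitters' processing notes. The region caller was not given in the sources used here. Per the file headers, each region has the authors' normalised read count (a coverage signal) of every library, packed without library names. The authors also deposited, for each group, the ratio of its mean to input, the log2 fold change (treated relative to control), and a p-value with its adjusted p-value, all used as they stood. The number of unused columns with per-sample values was 0. The 30 min control has 4 libraries in the labels, 1 of them a repeat, and 3 values per region, and which libraries these are is not known. Of 66 samples 41 belong to the groups of these tables, and the others were not analysed here.

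The reads behind each value were recovered from the step between low values, which were whole multiples within 0.1 read. One read was worth 0.833 to 1.27 normalised counts at 30 min, 0.758 to 1.36 at 2 hr, 0.878 to 1.18 at 5 hr, 0.785 to 1.51 in NeuN-positive and 0.542 to 2.64 in NeuN-negative nuclei, and 0.316 to 2.72 in CATCH-IT. The step search was tested on simulated data. Library totals were not used here, and levels were not compared across tables. Positions, exons and sequences come from the mm9 assembly (NCBIM37) with the GENCODE M1 annotation, and distances run from the annotated gene start to the region's centre. Python 3.11.15, pandas 2.3.3, numpy 2.4.6, pysam 0.24.0 and matplotlib 3.10.9 were used.

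No test was run on member values, because the regions were listed for differing between the same libraries. Threshold counts use the authors' adjusted p of 0.05. The 3 values of a group give the SD, which may be technical. Members, the list of 77 pathway genes and the marker list were chosen with earlier results of these data known. Named were every H3.3 region of the 4 genes and every CATCH-IT region of a gene with 6 or fewer. Of a gene with more, the CATCH-IT regions named were up to 3 of smallest adjusted p per direction and those at an exon. Of other pathway genes those with an H3.3 region were named, up to 6 per table by adjusted p, and of genes like Reln the 5 closest. One gene that the rule names is not reported here. A few further regions and genes that complete a count were named after their values were seen. Alternatives were assignment by gene span, the adjusted p threshold, groups that do not overlap, an absolute log2 fold change of 2, leaving out each library, the ratio to input, and pseudocounts of 1 and 0.5.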

Additional observations from a re-analysis of the deposited data

How the results depend on the processing

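Counted with an absolute log2 fold change of 2 or more, the lost H3.3 regions of the 4 genes were 1 in place of 3 at 30 min and 0 in place of 1 at 5 hr. With an adjusted p of 0.05 or less the 5 hr count was also 0. Counted by gene span, the lost CATCH-IT regions were 25 in place of 11, because regions in the 5′ part of Dab1 carry no name there. The other counts, under these alternatives and with groups that do not overlap, stayed within 1.5 times of those given. Leaving out 1 library at a time could not reverse a region whose groups do not overlap, but it moved values: the fold by over 1.5 times in 6 of the 10 H3.3 regions, and the mean of the higher group by over 1.5 times in 17 of 34 CATCH-IT regions. In the Dab1 5 hr region the fold ranged from 2.76 to 3.73. Of 13 regions with a finite ratio to input in both groups, 0 changed direction, and 10 of these were the H3.3 regions. The other 3 were CATCH-IT regions with a ratio of 0 in 1 group, so their direction could not change. The rest of the 34 CATCH-IT regions had no finite ratio in 1 group or in both, so input gave no check of the CATCH-IT directions. A pseudocount of 1 or 0.5 brings every fold change nearer to 0 and moved the log2 fold change by over 0.5 in the 3 NeuN-negative regions of Dab1, at most from 3.14 to 2.12. No paired analysis was possible because the packed values carry no library names or numbers and no test was run. Depth limits most of these values: the higher group of an H3.3 member region had from 2 to 24 reads per library, with a median of 12, and the lower group from 0 to 7, with a median of 3. The spread within a group therefore includes counting error, and the tables say nothing of regions under about 3-fold.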

Other observations

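At Vldlr, regions of different tables lay close together past the end of the gene, in data outside the counts above. In NeuN-positive nuclei the region chr19:27343741-27343940, 15019 bp past the gene end, was gained after enrichment, with normalised read counts of 15.70 and 17.12 against 1.51 and 5.14 in normally housed mice. Its means were 16.4 ± 1.00 and 3.33 ± 2.57 (SD, n = 2), the ratio to input was 1.54 against 0.48, and the authors' deposited table gave a log2 fold change of 2.31 and an adjusted p of 0.0395. The CATCH-IT region chr19:27344921-27345300, gained in cultured neurons after KCl with 8.02, 3.20 and 24.46 against 0 in each control, began 980 bp further on. The table named no gene for either, and both were chosen here after their values were seen, among 5 regions within 20 kb of the 4 genes.

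Whole sets of 6 values recurred in the CATCH-IT table. The values of the Reln region at 313.7 kb, 1.34, 6.39 and 2.72 after KCl and 0 in controls, were those of 1825 regions of the table, and 2005 regions had the values of the Dab1 region at 879.8 kb. The Reln regions at 286.3 and 268.5 kb had the same 6 values as each other and as 1023 regions in all. Over the 34 named regions the median was 224.5 regions with the same values, and the values of the Dab1 region near the downstream start occurred 1 time only.

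The authors' distances to Reln were not counted from its start in every table. In the 30 min, 2 hr and NeuN-negative tables they ran from the left end of the interval that the table itself gives for the named transcript, for 100% of the regions at minus-strand genes (192 to 306 regions per table), and in the other 4 tables from its right end. That interval need not be the annotated gene. The deposited distance of the Reln 2 hr region was 2031, where the region's centre lies 602.5 bp from the annotated start.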
